A study of Drosophila melanogaster with 15 samples.

Results

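The comparison concerns astrocytes of the adult *Drosophila* brain at 4 hr after traumatic brain injury (TBI) and astrocytes of uninjured brains. It uses 10 of the 15 RNA-seq samples of the series, 5 uninjured and 5 taken 4 hr after TBI. All genes with a value of at least 1 TPM (a gene's share of all transcripts, corrected for transcript length) in at least 5 of these 10 samples were tested, 7441 of the 17509 genes in the table. Flies of both groups carried *R86E01-Gal4*, an astrocyte driver, and *UAS-Redstinger*, a red nuclear fluorescent protein, and are otherwise labelled WT. They were collected 3 days after eclosion, and the injured group was struck with a high-impact trauma (HIT) device, in which a spring slams a vial of flies against a pad. About 50 brains were pooled for a tube, so a sample averages many animals, and 1600 red cells were sorted from it. The question was which genes astrocytes raise or lower within hours of the injury.

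Astrocytes of the fly send fine processes into the neuropil, take up glutamate and GABA, and answer transmitters such as octopamine and tyramine. Glia that meet damaged tissue are known to activate c-Jun N-terminal kinase (JNK) signaling, which acts through the AP-1 transcription factor, a dimer of Jun (*Jra*) and Fos (*kay*). Known AP-1 outputs in wounded fly epithelia and in glia around cut axons include the phosphatase gene *puc*, the matrix metalloproteinase gene *Mmp1* and the engulfment receptor gene *drpr*.

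The sorted cells had the transcripts of astrocytes in both groups. The 8 astrocyte marker genes summed to between 50860 and 81050 TPM in uninjured samples and between 53870 and 75120 TPM at 4 hr, and limma called 0 of the 8, of which 1 had an unadjusted p below 0.05. Transcripts of other cells were far lower. The sum of 13 neuronal markers ranged from 51.4 to 133 TPM in uninjured samples and from 91.3 to 185 TPM at 4 hr, and limma called 0 of the 10 tested, of which 0 had an unadjusted p below 0.05. Of the 8 hemocyte markers, only *crq*, a scavenger receptor gene, passed the filter, and the sum of all 8 ranged from 68.1 to 154 TPM in uninjured samples and from 113 to 222 TPM at 4 hr, almost all of it *crq*. The surface glia marker *moody* had a mean of 14.4 ± 8.95 (SD, n = 5) TPM in uninjured samples and 44.7 ± 25.6 (SD, n = 5) TPM at 4 hr, and it was not called (limma adjusted p = 0.0275). The hexamerin gene *Lsp1beta* of the fat body was listed at 0 in all uninjured samples and at 1.79 to 3.91 TPM in the 4 hr samples. It was called upregulated (log2(TPM + 1) difference 1.92 ± 0.28, SE; limma adjusted p = 0.000129), also with size factors, and was the only marker of another cell type that was called. Since it passed the filter through the 4 hr samples alone, which favors a rise, this call stands as description. The other fat body markers, *Lsp1alpha*, *Lsp1gamma*, *Lsp2*, *Fbp1* and *Fbp2*, had means of at most 0.012 TPM at 4 hr. Muscle markers were mixed. *Mlc1*, which missed the filter, was listed at 0 in all uninjured samples and had 2.98 ± 2.09 (SD, n = 5) TPM at 4 hr. Both muscle markers that were tested had a log2 fold change below 0. The part of other cell types in the results below was not tested. In such bulk samples, fewer cells of a type and less RNA per cell cannot be told apart.

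Transcripts of the mitochondrial genome made up 44.9, 51.8, 32.7, 41.9 and 44.1% of TPM in uninjured samples 1 to 5, and 17.2, 11.5, 26.9, 43.2 and 36.3% in 4 hr samples 1 to 5 (exact permutation p = 0.0556, two-sided). Samples 1 and 2 at 4 hr were thus the lowest, and samples 4 and 5 lay within the uninjured range. TPM has the same total in every sample, so a smaller mitochondrial share leaves more for other genes. The median log2 fold change over the 7441 genes was 0.31. It was 0.01 after scaling by median-of-ratios size factors and −0.06 after quantile normalization. The medians of gene lists below are to be read beside 0.31. The number of reads in each sample is unknown, so precision was taken from the spread between samples alone.

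At 4 hr after TBI, 469 genes (6.30% of those tested) were upregulated and 20 (0.269%) were downregulated, at a Benjamini–Hochberg adjusted p below 0.01 in limma and a log2 fold change of at least 1 in either direction. Of the upregulated genes, 203 had a log2 fold change of at least 2 and 51 of at least 3. Among the downregulated genes, 4 reached −2. At an unadjusted p below 0.05, 1764 genes were higher and 322 lower. In 427 of the 469 upregulated genes, all 5 samples at 4 hr lay above all 5 uninjured samples, and 15 of the 20 downregulated genes were apart in the other direction. Over all tested genes, 9.21% lay apart upward and 0.914% downward. For 41 tested genes, every 4 hr sample and no uninjured sample reached 1 TPM, so the filter itself fixed their upward separation. For 1 gene the reverse held. *Lsp1beta*, *Orc1*, *FarO*, *fbp*, *Fib*, *TrpA1* and *Cyp4d14* passed the filter through the 4 hr samples alone. For them the lack of overlap is not a separate result, and the filter itself favored a rise. Their p-values, their calls and their part in the list counts stand as description only. The upregulated genes included 454 protein-coding and 14 noncoding genes. With size factors, 325 genes (4.37%) were upregulated and 77 (1.03%) downregulated, so the share of calls that were higher went from 95.9 to 80.8%. With quantile normalization, 288 (3.87%) and 87 (1.17%) were called, and that share was 76.8%. Adding each sample's mitochondrial percentage to the fit gave 292 (3.92%) and 51 (0.685%). Removing the mitochondrial genome before scaling gave 328 (4.23%) and 68 (0.877%), and removing a trend with transcript length gave 345 (4.67%) and 81 (1.10%). None of the 489 genes called in the main fit had the opposite sign in these fits.

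**Figure D1:**
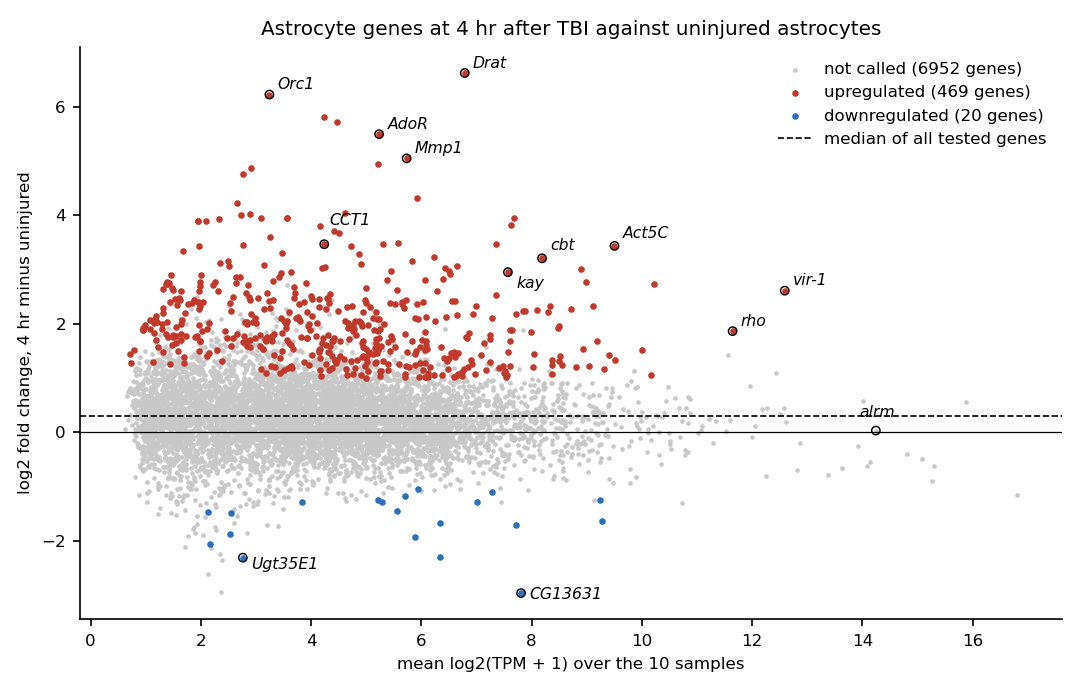
Each point is 1 of the 7441 tested genes, with its mean log2(TPM + 1) over the 10 samples on the x axis and its log2 fold change, 4 hr minus uninjured, on the y axis. The 469 upregulated genes are red, the 20 downregulated ones blue, and the dashed line marks the median of all tested genes at 0.31.

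The 4 hr samples differed in strength. Relative to the uninjured mean, the median shift of the 469 upregulated genes was 2.13, 2.13, 1.86, 1.53 and 1.69 on the log2 scale in 4 hr samples 1 to 5. Sample 4 was the lowest of the 5 in 224 of these genes and sample 5 in 108, while sample 1 or 2 was the highest in 315. The shift of all tested genes had a similar order, at 0.53, 0.61, 0.35, 0.04 and 0.18. Samples 1 and 2 were also those with the least mitochondrial RNA. Markers of other glia were highest in the same samples. In 4 hr samples 1 to 5, the ensheathing glia markers summed to 504.6, 460.7, 212.8, 148.5 and 141.1 TPM, the cortex glia markers to 135.7, 121.9, 107.3, 72.4 and 53.1 TPM, and the surface glia markers to 79.8, 55.7, 47.2, 27.3 and 13.9 TPM. The uninjured ranges were 185.2 to 289.7, 78.7 to 135.2 and 7.82 to 29.9 TPM. The surface glia sum was almost all *moody*, since *Mdr65* and *Gli* reached at most 0.03 and 0.16 TPM in these 10 samples. The part of mitochondrial RNA or of other glia in the difference between samples was not tested. With 4 hr samples 4 and 5 left out, 689 genes were upregulated and 33 downregulated. Without samples 1 and 2, 259 were upregulated and 13 downregulated.

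The largest rise was that of *Drat* (chromosome 2R from 7526118 to 7532981, dm6, minus strand), which encodes a protein of the alcohol dehydrogenase family. It had 11.1, 12.7, 11.6, 11 and 5.88 TPM in uninjured samples 1 to 5 and 1756, 1764, 1281, 509 and 779 TPM at 4 hr. The lowest injured sample was thus far above the highest uninjured sample. Its log2 fold change was 6.62 ± 0.36 (SE; limma adjusted p = 2.38e-09). Next came *Orc1* (chromosome 2R from 7522437 to 7525716, minus strand), the gene for the largest subunit of the origin recognition complex, with 0, 0.49, 0, 0 and 0.06 TPM in uninjured samples and 71.0, 107, 91.4, 82.7 and 60.0 TPM at 4 hr. It was almost unseen in uninjured astrocytes and present in every injured sample (log2 fold change 6.22 ± 0.37, SE; limma adjusted p = 7.25e-09).

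*Orc1* starts 401 bases beyond the end of *Drat* on the same strand, and the pair was not the only one. *CG4020* lies 346 bases beyond the cytoplasmic actin gene *Act5C* on the plus strand of chromosome X. It had 0.22 to 4.84 TPM in uninjured samples and 131 to 199 TPM at 4 hr, without overlap (log2 fold change 5.71 ± 0.35, SE; limma adjusted p = 9.27e-09). The noncoding gene *lncRNA:CR44708*, 508 bases beyond the upregulated *CG7378*, had 0, 5.5, 0, 0 and 14.2 TPM in uninjured samples and 122 to 168 TPM at 4 hr (log2 fold change 5.80 ± 0.76, SE; limma adjusted p = 3.75e-05). Of the 4 largest rises, 3 were therefore genes that start within 1000 bases beyond another upregulated gene on the same strand. Across all upregulated genes this held for 14 of 469 (2.99%), against 86 of the 7441 tested genes (1.16%). *fan*, 234 bases beyond *Sarm*, was another, with a mean of 1.48 ± 1.84 (SD, n = 5) TPM in uninjured samples and 22.04 ± 5.08 (SD, n = 5) TPM at 4 hr. TPM holds no read positions, so reads of a transcript that runs on from the upstream gene cannot be told apart from reads of these genes. The pattern was noticed after the values were seen and was not tested.

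*AdoR* encodes the adenosine receptor of the fly, a G protein-coupled receptor for a nucleoside that damaged cells release. Its level was 7.93, 1.00, 13.8, 5.79 and 2.08 TPM in uninjured samples and 391, 495, 297, 114.6 and 153 TPM at 4 hr. All injured samples stood above all uninjured ones, with samples 4 and 5 lowest (log2 fold change 5.49 ± 0.52, SE; limma adjusted p = 9.46e-07). The antisense gene *asRNA:CR46082* rose with it (4.76 ± 0.55, SE; limma adjusted p = 8.92e-06). Of the exonic bases of *AdoR*, 60.1% are shared with this antisense gene, and the library protocol does not mark strand, so the split of the signal between both is uncertain. *Mmp1*, which encodes a secreted protease of the extracellular matrix, had 6.86, 7.49, 22.7, 7.63 and 3.97 TPM in uninjured samples and 443, 418, 293, 219 and 222 TPM at 4 hr, again without overlap (log2 fold change 5.05 ± 0.33, SE; limma adjusted p = 2.04e-08).

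The other large rises were *CG3348*, the adhesion gene *NijA*, *Swip-1* for an EF-hand protein that binds actin, *CG1572* and *CG9689*. Their log2 fold changes ranged from 4.04 to 4.94, with limma adjusted p values between 1.61e-07 and 2.97e-06, and in each the 4 hr and uninjured samples did not overlap. For *Swip-1*, 36.0% of the exonic bases are shared with *CG10431*. *CG3348* differed from most upregulated genes in its order of samples. It was highest in 4 hr sample 4, at 347 TPM, and had 134, 163, 223 and 218 TPM in samples 1, 2, 3 and 5.

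**Figure D2:**
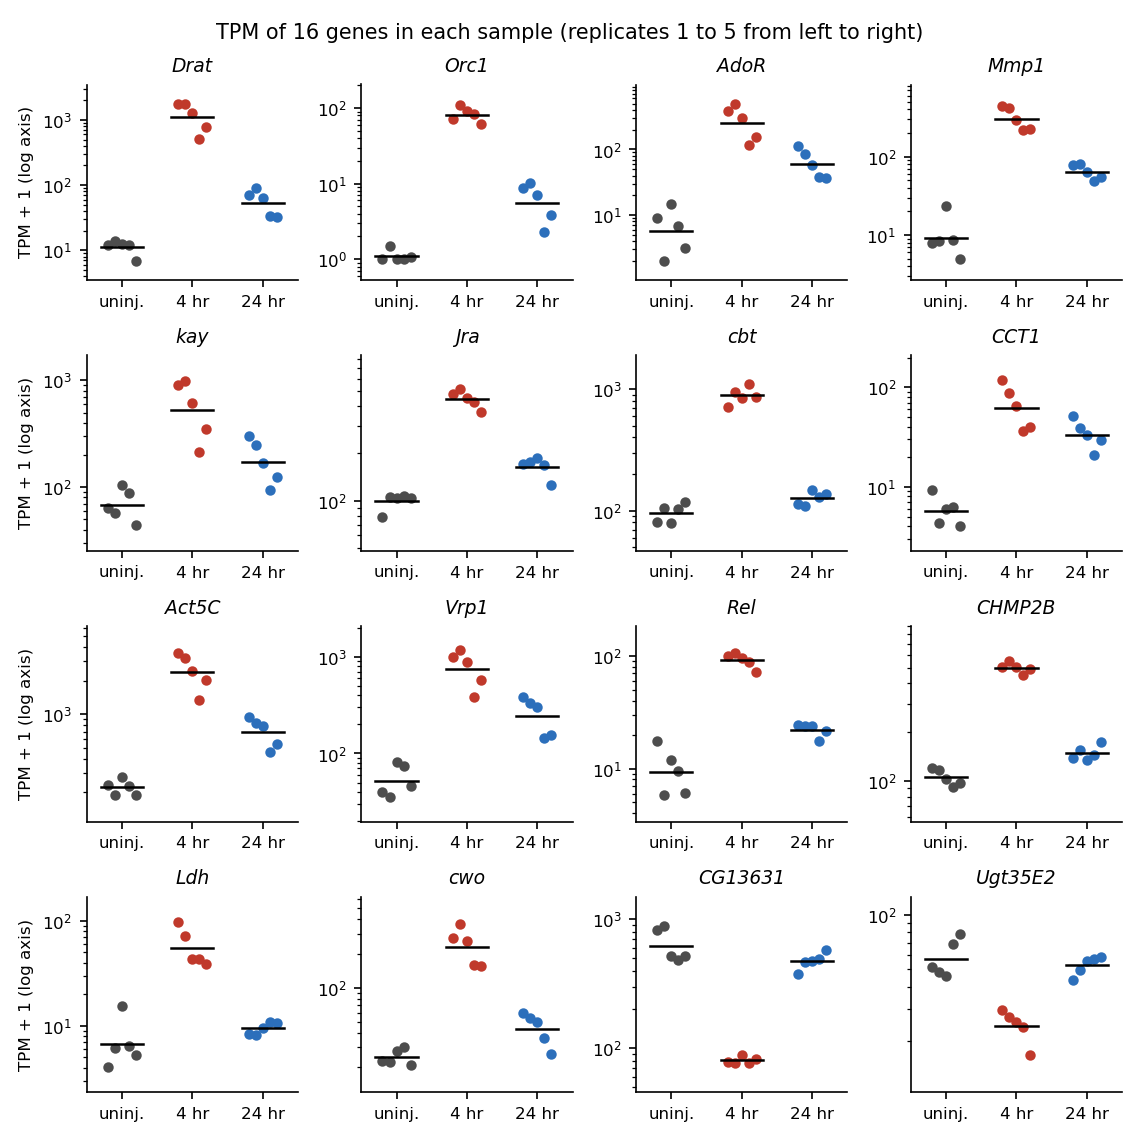
TPM plus 1 of 16 genes on a log axis in the uninjured, 4 hr and 24 hr samples, with replicates 1 to 5 of a group from left to right and a bar at the mean of the log values. In 14 of the 16 genes all 4 hr samples lie above the uninjured ones, and in *CG13631* and *Ugt35E2* all lie below.

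Among 17 tested genes for AP-1 and stress transcription factors, 7 were upregulated (41.2%, against 6.30% of all tested genes) and 0 downregulated. Their median log2 fold change was 0.75. The rise with the smallest p was that of *cbt*, which encodes a zinc-finger repressor. It had 79.1, 104, 78.9, 103 and 116 TPM in uninjured samples and 715, 949, 846, 1108 and 860 TPM at 4 hr, and here samples 4 and 5 were not the lowest (log2 fold change 3.21 ± 0.17, SE; limma adjusted p = 2.23e-09). *Jra* went from 77.5 to 105 TPM in uninjured samples to 369 to 513 TPM at 4 hr (2.17 ± 0.16, SE; limma adjusted p = 4.41e-08). *kay* had 63.2, 56.2, 104, 86.7 and 43.1 TPM in uninjured samples and 908, 982, 620, 213 and 348 TPM at 4 hr, so its increase ranged widely between samples while the groups stayed apart (2.95 ± 0.40, SE; limma adjusted p = 5.5e-05).

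The growth regulator *Myc* and *hry*, a bHLH repressor of the Notch target family, rose by 2.11 and 2.32 on the log2 scale, with limma adjusted p values of 5.51e-07 and 1.02e-06. *Myc* shares 61.2% of its exonic bases with *CG12535*. *Ets21C*, an ETS factor that acts with AP-1 in stressed tissue, had 0 to 2.74 TPM in uninjured samples and 51.0, 43.1, 40.0, 11.03 and 19.9 TPM at 4 hr (4.02 ± 0.46, SE; limma adjusted p = 8.86e-06). *Atf3*, a bZIP partner of *Jra*, rose by 1.39 ± 0.23 (SE; limma adjusted p = 0.000461), and its call was lost with both scalings, at adjusted p = 0.0186 and 0.0298. The list's most abundant gene, *Xrp1*, a bZIP factor of stress and cell competition, was not called. Its levels were 2743 to 5720 TPM in uninjured samples and 5008 to 13079 TPM at 4 hr, which overlap (log2 fold change 1.09, limma adjusted p = 0.0239). *cnc*, the fly Nrf2 gene, had a log2 fold change of 0.65 (limma adjusted p = 0.0211).

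In the JNK cascade list, which includes the AP-1 output *Mmp1*, 3 of 16 tested genes were upregulated (18.8%, against 6.30% of all tested genes). Of the 16, 0 were downregulated, and the median log2 fold change was 0.90. Apart from *Mmp1*, the upregulated genes were *puc*, which encodes the phosphatase that turns JNK off, and *Mkk4*, a JNK kinase gene. *puc* had 33.3, 53.3, 54.6, 42.9 and 62.7 TPM in uninjured samples and 114.7, 100.4, 105, 103 and 74.7 TPM at 4 hr, a small but complete separation (log2 fold change 1.02 ± 0.19, SE; limma adjusted p = 0.00101). *Mkk4* rose by 1.15 ± 0.27 (SE; limma adjusted p = 0.00738). Both calls were lost with size factors, at limma adjusted p = 0.0287 and 0.0148, so that *Mmp1* alone of the list was called there, and 1 of the 16 was also called without 4 hr sample 1. Transcripts of the kinase itself, *bsk*, had 67.0 ± 8.12 (SD, n = 5) TPM in uninjured samples and 58.4 ± 17.6 (SD, n = 5) TPM at 4 hr (limma adjusted p = 0.498).

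The receptor tyrosine kinase gene *Pvr*, for the fly's PDGF and VEGF receptor, did not pass the filter, since it reached 1 TPM in only 4 of the 10 samples. It had 0.50, 0.06, 0, 0.03 and 0 TPM in uninjured samples and 3.33, 2.25, 2.02, 0.62 and 2.90 TPM at 4 hr. These values do not overlap, and they stand without a test. Of its ligand genes, *Pvf1* and *Pvf2* had a mean below 1 TPM in both groups. The paper also names *Pvf3* as a ligand gene, for which no values are given here. Of the 20 tested genes of Pvr, Ras and Rac signaling, 4 were upregulated (20.0%, against 6.30% of all tested genes) and 0 downregulated. Their median of 0.36 was close to that of all genes. *rho*, for the intramembrane protease that releases EGF receptor ligands, was the most abundant of them. It went from 1007, 1719, 2292, 1910 and 1764 TPM to 5712, 6723, 6448, 5553 and 6253 TPM, and all injured samples were at a similar height (log2 fold change 1.87 ± 0.20, SE; limma adjusted p = 3.31e-06). The adaptor gene *Shc* and the GTPase genes *Rac2* and *Ras85D* rose by 1.08 to 1.35. The calls of *Rac2* and *Ras85D* were lost with size factors, at limma adjusted p = 0.0121 and 0.052, where *mbc* was downregulated. *spi*, the EGF ligand gene that depends on *rho*, had 785 ± 110 (SD, n = 5) TPM in uninjured samples and 656 ± 55.4 (SD, n = 5) TPM at 4 hr (limma adjusted p = 0.276).

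Many genes for building ribosomes were upregulated at 4 hr. Of 38 tested genes of the nucleolus and ribosome biogenesis, 22 were upregulated (57.9%, against 6.30% of all tested genes) and 0 downregulated. All 38 had a log2 fold change above 0, and the median was 1.72. *Surf6*, a nucleolar assembly factor gene, went from 12.5 to 30.9 TPM in uninjured samples to 116, 111, 104, 126 and 164 TPM at 4 hr (2.44 ± 0.26, SE; limma adjusted p = 3.23e-06). *RpLP0-like*, for a factor of late ribosome assembly, and *Rbm13* and *hoip*, a gene of small nucleolar RNA-protein complexes, rose by 1.98 to 2.29. *RpLP0-like* overlaps the end of *Jra* on the other strand by 4.1% of its exonic bases. Upregulated members further included *Polr1A* and *Polr1B*, for the main subunits of RNA polymerase I, *Nop56*, *Nop60B* and *Fib*. *Fib* was near the lower limit of the table, at 0 to 0.21 TPM in uninjured samples and 1.00 to 2.32 TPM at 4 hr. *Tif-IA*, which recruits RNA polymerase I, had 58.9 ± 12.1 (SD, n = 5) TPM in uninjured samples and 66.8 ± 23.4 (SD, n = 5) TPM at 4 hr (limma adjusted p = 0.74).

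Of 82 tested cytosolic ribosomal protein genes, only *RpL17* was called (1.22%, against 6.30% of all tested genes). At an unadjusted p below 0.05, 32 were higher and 0 lower, against 1764 and 322 of all 7441 genes. In 14 of the 82, all 4 hr samples lay above all uninjured ones, against 685 of the 7441 (9.21%). Their sum was 11780 to 18470 TPM in uninjured samples and 17130 to 21780 TPM at 4 hr, which overlap. *RpL17* rose by 1.05 ± 0.22 (SE; limma adjusted p = 0.0031), and the call was lost with size factors (adjusted p = 0.0397). The median of the 82 was 0.38, and 0.05 with size factors, where that of the nucleolar list was 1.41 and 17 of its genes were still called. Without 4 hr samples 1 and 2, 9 of the nucleolar genes were called, and the fit with the mitochondrial percentage also called 9. In this list the median shift per sample was 2.13, 2.08, 1.79, 1.14 and 1.22 at 4 hr, against −0.21 to 0.41 in uninjured samples, so that all injured samples stood higher and samples 4 and 5 the least.

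All 8 genes of the CCT chaperonin, the ring-shaped complex that folds new actin and tubulin, were upregulated, against 6.30% of all tested genes. They had a median of 2.59 and a range from 1.95 to 3.47. *CCT1* had 8.16, 3.29, 4.99, 5.27 and 3.00 TPM in uninjured samples and 118, 86.8, 63.3, 35 and 39.3 TPM at 4 hr, so that the lowest injured sample was well above the highest uninjured one (3.47 ± 0.35, SE; limma adjusted p = 1.84e-06). *CCT5* followed the same order, from 3.70 to 12.9 TPM to 190, 143, 87.5, 47.8 and 41.1 TPM (3.43 ± 0.43, SE; limma adjusted p = 2.52e-05). *CCT4* and *CCT3* rose by 2.09 and 2.55. Only *CCT7* overlapped between groups, with 11.7 TPM in uninjured sample 1 and 7.62 TPM in 4 hr sample 4. The sum of the complex was 57.4 to 131 TPM in uninjured samples and 289 to 1049 TPM at 4 hr. All 8 were called with size factors and with quantile normalization, and 5 without 4 hr samples 1 and 2. Of 6 tested genes of prefoldin, which delivers actin and tubulin to CCT, 1 was called (16.7%, against 6.30% of all tested genes). This was *Pfdn4* (1.04 ± 0.23, SE; limma adjusted p = 0.00432), and its call was lost with size factors (adjusted p = 0.0751).

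Of 7 tested actin and tubulin genes, which encode the substrates of CCT, 2 were upregulated (28.6%, against 6.30% of all tested genes). Of the same 7, 0 were downregulated, and the median was 1.09. *Act5C*, the main cytoplasmic actin gene (chromosome X from 5900861 to 5905399), had 231, 189, 275, 228 and 188 TPM in uninjured samples and 3573, 3228, 2446, 1341 and 2050 TPM at 4 hr (log2 fold change 3.44 ± 0.26, SE; limma adjusted p = 6.16e-08). *betaTub56D*, a general beta-tubulin gene, rose by 2.18 ± 0.20 (SE; limma adjusted p = 7.46e-07). *Act79B*, a muscle-type actin gene that was more abundant than *Act5C* in uninjured astrocytes, had 2203 ± 364 (SD, n = 5) TPM in uninjured samples and 2589 ± 333 (SD, n = 5) TPM at 4 hr (log2 fold change 0.24, limma adjusted p = 0.41). Its values overlap, in contrast to *Act5C*, and actin genes are similar enough that reads could be shared among them.

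Of 21 tested genes of heat shock proteins and co-chaperones, 3 were upregulated (14.3%, against 6.30% of all tested genes), *CG14207*, *stv* and *Hsc70-4*, and 0 were downregulated. In flies, the small heat shock protein CG14207, the BAG-family co-chaperone Starvin (*stv*) and the constitutive Hsc70-4 are known to work together in chaperone-assisted autophagy of damaged cytoskeletal proteins. *CG14207* had 28.4, 62.9, 123, 30.2 and 53.3 TPM in uninjured samples and 893, 836, 637, 784 and 901 TPM at 4 hr, with all injured samples several times above the uninjured maximum (3.94 ± 0.29, SE; limma adjusted p = 6.16e-08). *stv* rose by 2.10 ± 0.33 (SE; limma adjusted p = 0.000224). *Hsc70-4* rose by 1.89 ± 0.40 (SE; limma adjusted p = 0.00372), though without 4 hr samples 1 and 2 its adjusted p was 0.0562. *STUB1*, for the ubiquitin ligase of the same pathway, had 164 to 246 TPM in uninjured samples and 148 to 256 TPM at 4 hr (limma adjusted p = 0.842). *Hsp83*, the Hsp90 gene, had a log2 fold change of 0.71 (limma adjusted p = 0.0253).

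The list's median of 0.98 was above 0.31, and 19 of 21 genes were above 0. At an unadjusted p below 0.05, 11 were higher and 0 lower. The inducible gene *Hsp26* had 161.7 ± 90.5 (SD, n = 5) TPM in uninjured samples and 160.5 ± 69.7 (SD, n = 5) TPM at 4 hr. Other inducible genes, *Hsp70Aa* and *Hsp70Ba*, missed the filter and stand without a test. *Hsp70Aa* had 15.1, 0, 0, 0 and 0 TPM in uninjured samples and 66.3, 0, 37.2, 0 and 46.9 TPM at 4 hr, which overlap. *Hsp70Ba* had means of 0.19 and 0.93 TPM. Among 17 genes of the unfolded protein response of the endoplasmic reticulum, 1 was called (5.88%, against 6.30% of all tested genes). Their median was 0.58, and 15 of the 17 were above 0. At an unadjusted p below 0.05, 8 were higher and 0 lower. The called gene, *P58IPK*, had 2.42 to 7.92 TPM in uninjured samples and 8.16 to 22.04 TPM at 4 hr (1.53 ± 0.34, SE; limma adjusted p = 0.00462). It was lost without 4 hr samples 1 and 2 (adjusted p = 0.075). *Xbp1*, the transcription factor gene of that response, had a log2 fold change of 1.16 that was not called (limma adjusted p = 0.0369). Proteasome genes had 2 of 33 called (6.06%, against 6.30% of all tested genes), *Rpt5* and *Rpt6*, at 1.02 and 1.24, and with size factors 0 of 33.

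**Figure D3:**
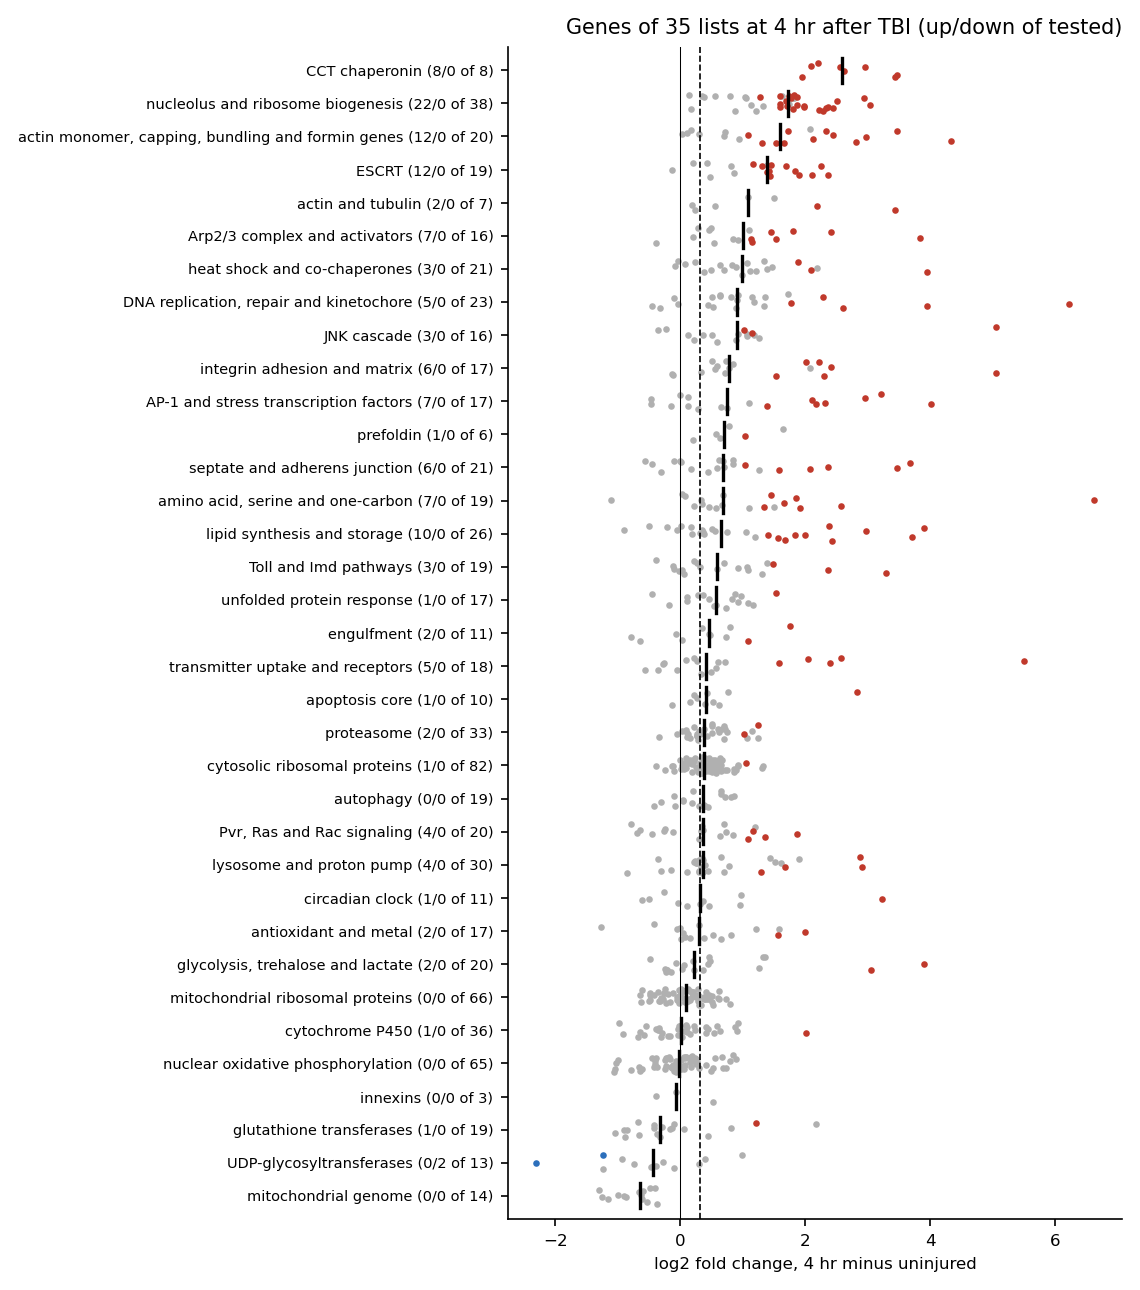
Log2 fold change, 4 hr minus uninjured, of the tested genes of each list, with upregulated genes in red, downregulated in blue and others in grey. Black bars mark each list's median, the dashed line marks the median of all tested genes at 0.31, and the counts give genes upregulated and downregulated of those tested.

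Many genes that build and remodel actin filaments rose at 4 hr. In the list of monomer-binding, capping, bundling and formin genes, 12 of 20 were upregulated (60.0%, against 6.30% of all tested genes) and 0 downregulated. All 20 were above 0, with a median of 1.602. *Fim*, the gene for the bundling protein fimbrin, went from 34.0 to 72.3 TPM in uninjured samples to 758, 653, 581, 366 and 441 TPM at 4 hr (3.46 ± 0.24, SE; limma adjusted p = 3.1e-08). *cib*, for a thymosin-type monomer-binding protein, had 219, 255, 309, 203 and 255 TPM in uninjured samples and 1314, 1245, 1103, 1121 and 1426 TPM at 4 hr, with little spread among injured samples (2.33 ± 0.17, SE; limma adjusted p = 4.41e-08). *capt*, which recycles actin monomers, rose by 2.97 ± 0.27 (SE; limma adjusted p = 7.46e-07). The capping protein genes *cpa* and *cpb*, whose products cap filament ends as a dimer, rose by 2.12 ± 0.23 and 1.31 ± 0.20 (SE), to 141.5 ± 18.6 and 62.0 ± 9.97 (SD, n = 5) TPM. The call of *cpb* was lost with size factors because its log2 fold change went below 1 (adjusted p = 0.00209). Other members called were *Frl*, *capu*, *chic*, *coro*, *flr* and *pod1*.

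Branched actin is nucleated by the Arp2/3 complex. Of 16 tested genes of the complex and its activators, 7 were upregulated (43.8%, against 6.30% of all tested genes) and 0 downregulated. Their median was 1.01. Without 4 hr samples 1 and 2, 4 were upregulated, with size factors 5 and with quantile normalization 4. *Vrp1*, for the WASp-binding protein verprolin, led with 39.3, 34.3, 80.5, 72.5 and 45.0 TPM in uninjured samples and 997, 1163, 890, 383 and 569 TPM at 4 hr (3.83 ± 0.35, SE; limma adjusted p = 6.16e-07). *Cip4*, a membrane-bending activator gene, and *WASp* rose by 2.41 and 1.53. Of the complex itself, *Arpc2*, *Arpc4*, *Arpc1* and *Arp2* were called. The call of *Arpc4* was lost with size factors, at a log2 fold change of 0.805 (limma adjusted p = 0.0166). *Arpc2* had 46.7, 37.0, 81.0, 69.7 and 51.3 TPM in uninjured samples and 135, 140, 149, 150 and 195 TPM at 4 hr, highest in sample 5 (1.46 ± 0.20, SE; limma adjusted p = 5.66e-05). *Arp3* had 34.5 ± 9.33 (SD, n = 5) TPM in uninjured samples and 67.8 ± 23.5 (SD, n = 5) TPM at 4 hr and was not called (limma adjusted p = 0.0214). *SCAR*, the other activator, had a log2 fold change of 0.20 (limma adjusted p = 0.732).

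Nonmuscle myosin light chain genes, which stand in none of the lists, rose with little spread. *sqh*, for the regulatory light chain, had 279 to 382 TPM in uninjured samples and 929 to 1242 TPM at 4 hr (1.69 ± 0.17, SE; limma adjusted p = 1.68e-06). *Mlc-c*, for the essential light chain, had 148 to 224 TPM and 600 to 780 TPM (1.96 ± 0.18, SE; limma adjusted p = 5.74e-07). *Pak3*, for a kinase that Rac activates, rose by 3.50 ± 0.28 (SE; limma adjusted p = 1.36e-07). *AnxB9*, for an annexin that binds membranes with calcium, went from 373 to 738 TPM to 2184 to 3979 TPM (2.73 ± 0.22, SE; limma adjusted p = 1.64e-07).

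Genes that tie the cytoskeleton to the matrix and to neighboring cells rose in part. Of 17 tested genes of integrin adhesion and matrix, 6 were upregulated (35.3%, against 6.30% of all tested genes) and 0 downregulated. Their median was 0.78. Without 4 hr samples 1 and 2, 3 were called. The 6 were *Mmp1*, *rhea* for talin, *Fit1* for kindlin, *mys* for the integrin beta chain, *Tig* for the integrin ligand tiggrin, and *parvin*. *rhea* had 17.2, 20.8, 18.1, 27.6 and 21.6 TPM in uninjured samples and 112, 132, 133, 114.5 and 88.0 TPM at 4 hr, with no overlap and similar levels in all injured samples (2.41 ± 0.18, SE; limma adjusted p = 5.27e-08). *Fit1* rose by 2.22 ± 0.26 (SE; limma adjusted p = 1.11e-05). *mys* went from 5.29 to 13.1 TPM to 55.4, 50.9, 25.6, 23.9 and 24.1 TPM (2.02 ± 0.37, SE; limma adjusted p = 0.000939). Without 4 hr samples 1 and 2 its adjusted p was 0.0195.

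Of 21 tested genes of septate and adherens junctions, 6 were upregulated (28.6%, against 6.30% of all tested genes) and 0 downregulated. They had a median of 0.69, and 2 were called without 4 hr samples 1 and 2. *cora*, for the band 4.1 protein Coracle, had 6.83, 7.35, 16.4, 12.9 and 14.1 TPM in uninjured samples and 159, 208, 134, 102 and 84.1 TPM at 4 hr (3.47 ± 0.29, SE; limma adjusted p = 2.56e-07). *Nrt*, for the cell adhesion protein Neurotactin, rose by 3.68 ± 0.42 (SE; limma adjusted p = 8.86e-06), and 21.8% of its exonic bases are shared with *mus302*. *Fas3* rose from 0 to 1.64 TPM to 2.42 to 9.78 TPM (2.36 ± 0.41, SE; limma adjusted p = 0.000719). *Ssk*, *Lac* and *l(2)gl* were the others called. The summed TPM of this list, 1327 to 1749 in uninjured samples and 1362 to 2032 at 4 hr, overlapped between groups, since its most abundant genes, among them *nrv2*, were not called.

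The ESCRT complexes bend endosomal membrane, sort ubiquitinated receptors toward the lysosome and reseal damaged membrane. Of their 19 genes, all tested, 12 were upregulated (63.2%, against 6.30% of all tested genes) and 0 downregulated, with a median of 1.39. Of these 12, 7 encode parts of the membrane-cutting ESCRT-III or related proteins. *CHMP2B* had 120, 116, 101, 91.1 and 95.7 TPM in uninjured samples and 504, 548, 503, 448 and 489 TPM at 4 hr, with little spread among injured samples and no overlap (2.24 ± 0.14, SE; limma adjusted p = 9.27e-09). *Vps2* and *Ist1* rose by 1.84 ± 0.17 and 2.10 ± 0.22 (SE), and *Vta1*, a cofactor of the disassembly ATPase, by 1.69 ± 0.17 (SE). *shrb*, *Vps20*, *Vps24* and *Chmp1* were the others of this kind, and *Vps28*, *Mvb12*, *ALiX* and *Stam* completed the 12. *Vps24* went from 89.6 to 273 TPM to 367 to 489 TPM (1.44 ± 0.22, SE; limma adjusted p = 0.000214), and 68.1% of its exonic bases are shared with *MP1*.

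Of the ESCRT-0 genes, which bind cargo first, *Stam* had 49.7, 61.8, 70.9, 81.4 and 40.8 TPM in uninjured samples and 230, 258, 183, 86.3 and 101 TPM at 4 hr (1.39 ± 0.31, SE; limma adjusted p = 0.00558). Samples 4 and 5 lay just above the uninjured maximum, and without samples 1 and 2 its adjusted p was 0.0813. Its partner *Hrs* had 213 ± 55.5 (SD, n = 5) TPM in uninjured samples and 396.5 ± 169 (SD, n = 5) TPM at 4 hr and was not called (limma adjusted p = 0.0634). *TSG101* of ESCRT-I went from 74.0 to 98.4 TPM to 151 to 161 TPM, without overlap (limma adjusted p = 0.000461), but its log2 fold change of 0.86 was below the threshold of 1. Per sample, the median shift of the ESCRT genes was 1.42, 1.47, 1.43, 1.03 and 1.31 at 4 hr, so the samples were more alike here than in the CCT list, at 3.35, 3.26, 2.80, 1.35 and 2.08. Of the ESCRT genes, 10 were called with size factors, 10 without 4 hr samples 1 and 2, and 9 with quantile normalization.

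**Figure D4:**
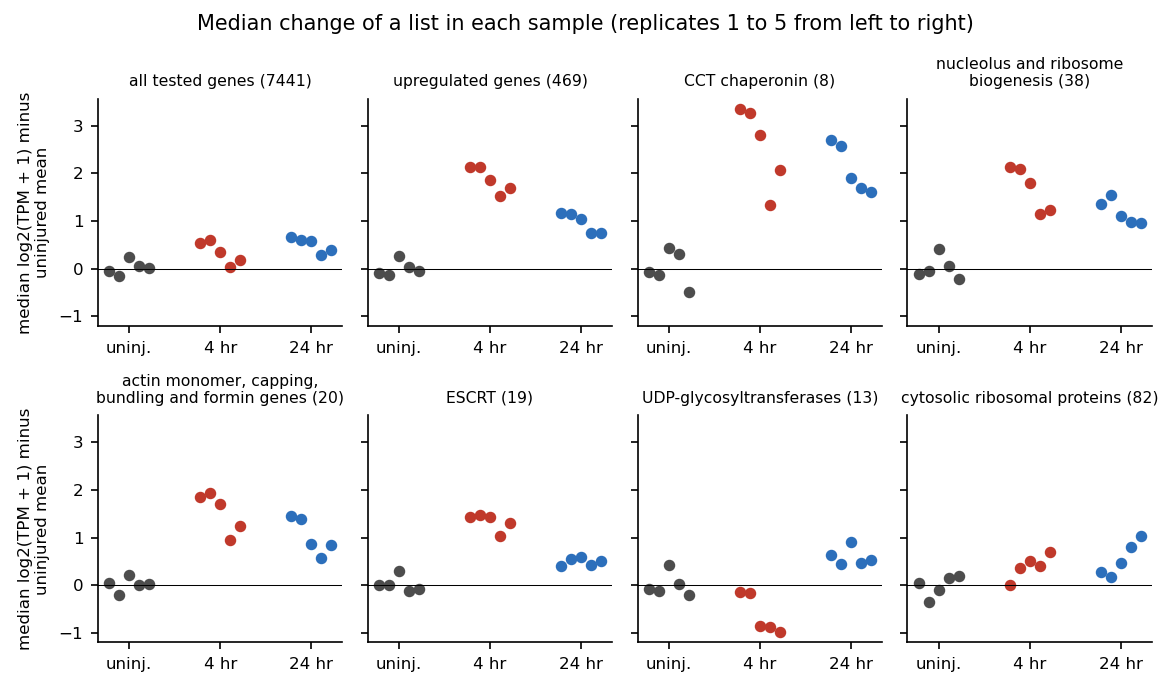
Median over the genes of a list of log2(TPM + 1) minus the uninjured mean, in each of the 5 uninjured, 5 4 hr and 5 24 hr samples, with the number of genes in parentheses. ESCRT genes at 4 hr lie between 1.03 and 1.47, CCT genes between 1.35 and 3.35, and UDP-glycosyltransferase genes between −0.98 and −0.14.

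Downstream of ESCRT, 4 of 30 tested genes of the lysosome and its proton pump were upregulated (13.3%, against 6.30% of all tested genes) and 0 downregulated. Their median of 0.36 was close to that of all genes. *spin*, for the lysosomal transporter Spinster, went from 20.7 to 63.3 TPM to 331, 378, 306, 157 and 170 TPM (2.91 ± 0.33, SE; limma adjusted p = 8.56e-06). The cholesterol carrier genes *Npc2b* and *Npc2a* rose by 2.87 and 1.29, and the protease gene *CtsF* by 1.68. *CtsF* overlapped between groups and was lost without 4 hr samples 1 and 2 (limma adjusted p = 0.102). *Npc2a* was lost there as well (0.046). *Lamp1*, an abundant lysosomal membrane gene, had 1268 ± 269 (SD, n = 5) TPM in uninjured samples and 976 ± 129 (SD, n = 5) TPM at 4 hr (limma adjusted p = 0.243). Limma called 0 of 19 tested autophagy genes, and their median was 0.36. At an unadjusted p below 0.05, 2 of the 19 were higher, a smaller share than the 1764 of 7441 over all tested genes. *Atg8a* had 896 ± 105 (SD, n = 5) TPM in uninjured samples and 771 ± 297 (SD, n = 5) TPM at 4 hr, and *ref(2)P*, the fly p62 gene, 148 ± 29.5 and 251 ± 116 (SD, n = 5) TPM.

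Metabolic genes changed in part. Of 26 tested genes of lipid synthesis and storage, 10 were upregulated (38.5%, against 6.30% of all tested genes) and 0 downregulated. They had a median of 0.65, and 5 were called without 4 hr samples 1 and 2. *FarO*, for a fatty acyl-CoA reductase, was listed at 0 in all uninjured samples and at 13.6, 19.2, 15.9, 16.5 and 7.28 TPM at 4 hr (limma adjusted p = 1.31e-07). It passed the filter through the 4 hr samples alone, so its p-value and call stand as description. *NLaz*, a lipocalin gene that JNK signaling is known to induce, had 26.6, 37.7, 65.4, 15.4 and 29.0 TPM in uninjured samples and 238, 282, 271, 223 and 251 TPM at 4 hr, with all injured samples at a similar level (2.97 ± 0.26, SE; limma adjusted p = 5.27e-07). *FASN1*, for fatty acid synthase, rose from 3.86 to 7.42 TPM to 17.8 to 21.8 TPM (1.84 ± 0.25, SE; limma adjusted p = 5.2e-05). *ifc*, for the enzyme that makes ceramide from dihydroceramide, rose by 1.57 ± 0.20 (SE; limma adjusted p = 2.43e-05). *Pcyt1*, for the rate-limiting enzyme of phosphatidylcholine synthesis, rose by 3.70 ± 0.65 (SE; limma adjusted p = 0.000757). The glycerolipid synthesis genes *mdy* and *mino*, the latter with 42.4% of its exonic bases shared with an antisense gene, along with *Gnpat*, *Gpo1* and *AcCoAS*, were the rest.

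In the list of glycolysis, trehalose and lactate genes, 2 of 20 were upregulated (10.0%, against 6.30% of all tested genes) and 0 downregulated. The median was 0.21. *Ldh*, for lactate dehydrogenase, had 3.08, 5.17, 14.6, 5.37 and 4.28 TPM in uninjured samples and 95.6, 70.9, 42.6, 42.0 and 37.7 TPM at 4 hr (3.04 ± 0.34, SE; limma adjusted p = 7.62e-06). *fbp*, for fructose-1,6-bisphosphatase, an enzyme of gluconeogenesis, was listed at 0 in all uninjured samples and at 10.4 to 19.2 TPM at 4 hr (limma adjusted p = 7.76e-06). This gene too passed the filter through the 4 hr samples alone, so its call stands as description. The glycolytic gene *Gapdh2* had 2532 ± 957 (SD, n = 5) TPM in uninjured samples and 2854 ± 608 (SD, n = 5) TPM at 4 hr (limma adjusted p = 0.57).

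Of 19 tested genes of amino acid, serine and one-carbon metabolism, 7 were upregulated (36.8%, against 6.30% of all tested genes) and 0 downregulated. Their median was 0.68. Without 4 hr sample 1 alone the count of upregulated genes was 3. It was also 3 without samples 1 and 2 and with the mitochondrial percentage in the fit. With size factors 5 were upregulated and *mnd*, an amino acid transporter gene, was downregulated (−1.45, limma adjusted p = 0.00033). *Drat* stands in this list although its protein is of the alcohol dehydrogenase family. *Gdh*, for glutamate dehydrogenase, went from 3.47 to 7.25 TPM to 42.0, 54.6, 31.9, 12.9 and 29.0 TPM (2.56 ± 0.33, SE; limma adjusted p = 3.34e-05). *Nmdmc*, for a mitochondrial folate enzyme, rose by 1.45 ± 0.19 (SE; limma adjusted p = 3.99e-05). *AlaRS*, the alanyl-tRNA synthetase gene, rose by 1.91 ± 0.41 (SE; limma adjusted p = 0.00413), but 4 hr sample 5, at 8.98 TPM, lay below uninjured sample 1, at 9.38 TPM, and without 4 hr samples 1 and 2 its adjusted p was 0.0662. *Sesn*, *aay* and *Ahcy* were also called. *Sesn* and *aay* overlapped between groups, and 67.4% of the exonic bases of *Sesn* are shared with another gene.

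Mitochondrial genes were not called in either direction by limma, in 14 genes of the mitochondrial genome, 65 nuclear genes of oxidative phosphorylation and 66 of the mitochondrial ribosome. Their medians were −0.64, −0.01 and 0.09. At an unadjusted p below 0.05, 3 of the 14 were lower, 4 of the 65 lower and 2 higher, and 1 of the 66 lower and 5 higher. With quantile normalization *ND-PDSW* was downregulated (limma adjusted p = 0.00294). The first list shows the fall of the mitochondrial share given above, in which samples 4 and 5 differed from samples 1 and 2. *mt:ATPase6* had 51906, 73878, 41716, 50012 and 57727 TPM in uninjured samples and 19398, 13136, 35148, 55513 and 40614 TPM at 4 hr (limma adjusted p = 0.142). *ATPsynC*, a nuclear gene for a subunit of the same enzyme, had 2974 ± 503 (SD, n = 5) TPM in uninjured samples and 3004 ± 457 (SD, n = 5) TPM at 4 hr (limma adjusted p = 0.962).

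Besides *AdoR*, other receptor and channel genes rose from low levels. Of 18 tested genes of transmitter uptake and receptors, 5 were upregulated (27.8%, against 6.30% of all tested genes) and 0 downregulated. Their median was 0.42. *Oct-TyrR*, for the receptor of octopamine and tyramine through which these transmitters are known to act on larval astrocytes, had 0.03, 0.36, 0, 2.35 and 2.79 TPM in uninjured samples and 11.6, 15.7, 6.89, 4.39 and 7.2 TPM at 4 hr (2.40 ± 0.47, SE; limma adjusted p = 0.00175). Without 4 hr samples 1 and 2 its adjusted p was 0.0301. The cation channel gene *TrpA1* had 0 to 0.62 TPM and 1.16 to 7.23 TPM (2.04 ± 0.33, SE; limma adjusted p = 0.000318). Its call stands as description, since it passed the filter through the 4 hr samples alone. *5-HT7*, a serotonin receptor gene, had 3.39, 2.55, 3.87, 3.10 and 3.65 TPM in uninjured samples and 7.47, 11.2, 11.6, 14.3 and 15.8 TPM at 4 hr, here with samples 4 and 5 highest (1.57 ± 0.27, SE; limma adjusted p = 0.000487). The uptake genes stayed among the most abundant. *Gat*, the GABA transporter gene, had 17400 ± 4721 (SD, n = 5) TPM in uninjured samples and 14190 ± 1491 (SD, n = 5) TPM at 4 hr (limma adjusted p = 0.484), and *Gs2*, for glutamine synthetase, 13790 ± 2504 and 21310 ± 7284 (SD, n = 5) TPM (limma adjusted p = 0.142).

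A few genes of DNA replication and cell division rose. Of 23 tested genes of DNA replication, repair and kinetochore, 5 were upregulated (21.7%, against 6.30% of all tested genes) and 0 downregulated. Those upregulated were *Orc1*, *SuUR*, *twe*, *cid* and *stg*, and the median of the 23 was 0.91. *SuUR*, which encodes a chromatin protein that slows replication forks, went from 0.49 to 3.32 TPM to 36.4, 50.4, 44.4, 58.4 and 41.4 TPM (3.95 ± 0.31, SE; limma adjusted p = 1.36e-07). All of its exonic bases are shared with *CG45101*, which has the same values in every sample, so both cannot be told apart. The Cdc25 phosphatase genes *twe* and *stg* rose to 4.47 ± 1.11 and 13.0 ± 8.29 (SD, n = 5) TPM, and *cid*, the centromeric histone gene, to 7.98 ± 3.14 (SD, n = 5) TPM. *stg* was lost without 4 hr samples 1 and 2 (limma adjusted p = 0.0154). The summed TPM of this list was 104 to 221 in uninjured samples and 322 to 478 at 4 hr. It includes *SuUR* and also *Orc1*, whose reads cannot be told apart from reads running on from *Drat*, as stated above. Members that missed the filter were mixed and untested. *Mcm2* had means of 1.02 TPM in uninjured samples and 0.57 TPM at 4 hr, and *Nuf2* 0 and 3.61 TPM. In the circadian clock, *cwo*, for a repressor of clock output, was the only member of 11 called (9.09%, against 6.30% of all tested genes). It had 21.6, 21.3, 26.9, 28.9 and 19.8 TPM in uninjured samples and 273, 365, 256, 158 and 156 TPM at 4 hr (3.23 ± 0.27, SE; limma adjusted p = 2.03e-07). Of all 11 clock genes, 7 had a log2 fold change above 0, and the median was 0.31.

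In the Toll and Imd pathways, 3 of 19 tested genes were upregulated (15.8%, against 6.30% of all tested genes) and 0 downregulated. The median of the 19 was 0.59. All 3 encode the NF-kappaB factors at the end of the pathways, *Rel*, *Dif* and *dl*. The call of *dl* was lost without 4 hr samples 1 and 2 (limma adjusted p = 0.013). With the mitochondrial percentage in the fit it was lost as well, at a log2 fold change of 0.92. *Rel* went from 4.86 to 16.6 TPM to 97.8, 105, 94.5, 87.5 and 71.1 TPM (3.29 ± 0.27, SE; limma adjusted p = 2.11e-07), *Dif* from 11.6 to 32.0 TPM to 68.4 to 174 TPM (2.36 ± 0.30, SE; limma adjusted p = 2.99e-05), and *dl* from 41.3 to 71.0 TPM to 103 to 224 TPM (1.48 ± 0.26, SE; limma adjusted p = 0.000707). Of their targets, the antimicrobial peptide genes, none of the 15 in the table passed the filter. Of these, 8 were listed at 0 in all 10 samples, as were genes that every cell uses, such as the proteasome gene *Prosalpha1* and the ribosomal protein gene *RpL39*, so a listed 0 does not show that a gene was silent. The 15 summed to 0.80 to 10.1 TPM in uninjured samples and 0.13 to 3.16 TPM at 4 hr. *PGRP-SA*, which the paper lists among receptor genes upregulated at 4 or 24 hr, reached 1 TPM in only 4 of the 10 samples. It thus missed the filter and was not tested. Its level was 0 TPM in all uninjured samples and 5.67, 14.5, 1.79, 10.64 and 0 TPM at 4 hr. *vir-1*, a gene known to be induced by virus infection, had the highest mean TPM at 4 hr of all upregulated genes. Its level was 2421, 2512, 3207, 1990 and 2517 TPM in uninjured samples and 12570, 14426, 14359, 16291 and 19564 TPM at 4 hr, so samples 4 and 5 were the highest (2.61 ± 0.18, SE; limma adjusted p = 3.31e-08).

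Of 11 tested engulfment genes, 2 were upregulated (18.2%, against 6.30% of all tested genes) and 0 downregulated, with a median of 0.47. With size factors 1 was upregulated and 1 downregulated, *mbc*, for a Rac activator (−1.14, limma adjusted p = 0.00643). *drpr* had 50.2, 55.8, 83.4, 60.2 and 56.8 TPM in uninjured samples and 279, 255, 184, 169 and 169 TPM at 4 hr, without overlap (1.76 ± 0.23, SE; limma adjusted p = 4.02e-05). *Rac2*, lost with size factors and without uninjured sample 4, was the other. *ced-6*, for the adaptor that binds Draper, had 269 ± 51.3 (SD, n = 5) TPM in uninjured samples and 278 ± 74.2 (SD, n = 5) TPM at 4 hr (limma adjusted p = 0.948). From the apoptosis list, 1 of 10 tested genes was called (10.0%, against 6.30% of all tested genes). This was *Sarm*, the fly gene of the axon degeneration factor SARM1. It went from 21.3 to 45.7 TPM to 407, 379, 236, 118 and 126 TPM (2.82 ± 0.41, SE; limma adjusted p = 0.000118).

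The largest fall was that of *CG13631* (chromosome 3R from 24769351 to 24770933). It had 830, 882, 517, 484 and 521 TPM in uninjured samples and 76.9, 76.0, 87.3, 76.1 and 81.2 TPM at 4 hr. All injured samples were at nearly the same low level, including samples 4 and 5 (log2 fold change −2.96 ± 0.19, SE; limma adjusted p = 9.27e-09). Next were *Ugt35E1*, at −2.31 ± 0.52 (SE; limma adjusted p = 0.00571), and *asRNA:CR45943*, at −2.30 ± 0.27 (SE; limma adjusted p = 1.06e-05), all of whose exonic bases lie within *CG13255*. *Ugt35E1* was lost without 4 hr samples 1 and 2 (adjusted p = 0.0395). *pre-lola-G*, *lncRNA:CR45517*, *CG31300*, *asRNA:CR45161* and *pre-rRNA:CR45845* fell by 2.05, 1.93, 1.87, 1.70 and 1.67 on the log2 scale. *CG31300* had a limma adjusted p of 0.00706, which went up to 0.0229 with single samples left out. Of the exonic bases of *pre-lola-G* 60.9% are shared with *lola*, and of those of *asRNA:CR45161* 77.5% with *fln*. The ribosomal RNA precursor *pre-rRNA:CR45845* is not a usual target of priming on poly(A), and 71.9% of its exonic bases are shared with other rRNA genes. It had 87.0, 165, 184, 149 and 152 TPM in uninjured samples and 46.3, 22.1, 59.0, 81.1 and 33.8 TPM at 4 hr.

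The UDP-glycosyltransferases, which conjugate sugar to lipophilic compounds and so detoxify them, were the only list with more downregulated than upregulated genes, 2 against 0 of 13 tested. The median log2 fold change was −0.43, and 10 of the 13 were below 0. Among all tested genes, 0.269% were downregulated. *Ugt35E2* had 50.4, 46.9, 44.6, 67.6 and 76.9 TPM in uninjured samples and 28.7, 25.9, 24.5, 22.7 and 15.7 TPM at 4 hr, with no overlap and sample 5 lowest (−1.24 ± 0.21, SE; limma adjusted p = 0.000479). *Ugt35B1*, the most abundant of the family, had 1030, 774, 1347, 867 and 1000 TPM in uninjured samples and 784, 680, 494, 423 and 333 TPM at 4 hr. Its log2 fold change of −0.93 was short of the threshold (limma adjusted p = 0.00738). With size factors 5 of the 13 were downregulated. The order of samples differed from that of the upregulated genes. The list's median shift was −0.14 and −0.17 in 4 hr samples 1 and 2 and −0.86, −0.87 and −0.98 in samples 3, 4 and 5.

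Other detoxification genes were mixed. Of 19 tested glutathione transferase genes, 1 was called (5.26%, against 6.30% of all tested genes). This gene, *GstE3*, rose by 1.204 ± 0.26 (SE; limma adjusted p = 0.00408), with overlapping groups, and its call was lost with size factors (0.0558). The median of the 19 was −0.32. At an unadjusted p below 0.05, 7 were lower and 3 higher, beside 5 lower and 1 higher of the 13 UDP-glycosyltransferases. With size factors *GstD1* and *GstD3* were downregulated and 0 of the 19 upregulated. A difference between both families was not tested. Of 36 cytochrome P450 genes, 1 was called (2.78%, against 6.30% of all tested genes). This was *Cyp4d14*, which passed the filter through the 4 hr samples alone. It went from at most 0.61 TPM in uninjured samples to 2.18 to 7.12 TPM at 4 hr, and 97.2% of its exonic bases are shared with an antisense gene. The median of the 36 was 0.01. In the antioxidant and metal list, 2 of 17 were upregulated (11.8%, against 6.30% of all tested genes) and 0 downregulated, with a median of 0.29. *Gclm*, for the regulatory subunit of the enzyme that limits glutathione synthesis, and the catalase gene *Irc* rose by 1.56 and 2.00 (limma adjusted p = 0.00102 and 0.00828). Both calls were lost with size factors (0.0131 and 0.0122). *Sod3*, an abundant superoxide dismutase gene, had 2123 ± 611 (SD, n = 5) TPM in uninjured samples and 1568 ± 350 (SD, n = 5) TPM at 4 hr (limma adjusted p = 0.221).

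At 24 hr after TBI most of these changes were smaller. The 24 hr samples are compared with the same uninjured samples, and the genes were chosen on the 4 hr samples, so the values stand as a description. The median log2 fold change of the 469 upregulated genes was 1.87 at 4 hr and 0.94 at 24 hr, beside 0.31 and 0.50 for all tested genes. The mean of log2(TPM + 1) was lower at 24 hr than at 4 hr in 434 of the 469, with a limma adjusted p below 0.01 in 133, against 146 (1.96%) of all tested genes. *Drat* had 57.1 ± 24.6 (SD, n = 5) TPM at 24 hr, *cbt* 127 ± 16 (SD), *CHMP2B* 148 ± 16.4 and *Ldh* 8.54 ± 1.25. For *cbt* the 24 hr value was close to its uninjured mean of 96.3 ± 16.6 (SD, n = 5) TPM.

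Other genes kept their level to 24 hr. *CG9689* had 101 ± 24.8 (SD, n = 5) TPM at 4 hr and 162.5 ± 50.8 (SD, n = 5) at 24 hr. *Npc2b* had 18.5 ± 10.8 and 21.01 ± 4.23 (SD, n = 5) TPM, and *Hsc70-4* 427 ± 232 and 399 ± 194 (SD, n = 5) TPM. For the CCT list the median was 2.59 at 4 hr and 2.02 at 24 hr, for the ESCRT list 1.39 and 0.42, for the nucleolar list 1.72 and 1.11, and for the UDP-glycosyltransferases −0.43 and 0.63. Of the 20 downregulated genes, 19 had a higher mean of log2(TPM + 1) at 24 hr than at 4 hr. *CG13631* was back at 477 ± 71.2 (SD, n = 5) TPM, and *pre-rRNA:CR45845* had 324 ± 70.7 (SD, n = 5) TPM, above its uninjured mean of 147 ± 36.5 (SD, n = 5).

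**Figure D5:**
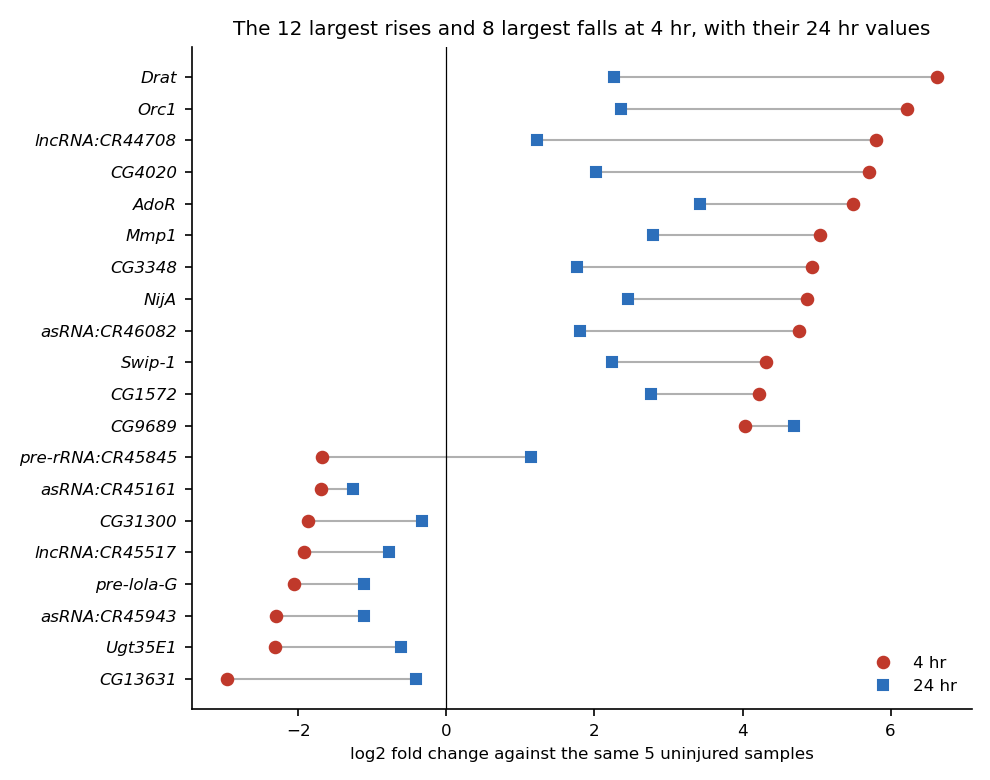
Log2 fold change at 4 hr (red circles) and at 24 hr (blue squares) against the same 5 uninjured samples, for the 12 largest rises and the 8 largest falls at 4 hr. The 24 hr value lies closer to 0 than the 4 hr value in all but *CG9689*, and *pre-rRNA:CR45845* went from −1.67 to 1.14.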

How the data were processed

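Smart-seq2 cDNA of sorted astrocytes, primed on poly(A), was sequenced. The authors deposited a table of TPM values per gene to 2 decimals. Their processing notes list dm6, HISAT2, HTSeq, DESeq2 1.30.1, STAR 2.6.0a and RSEM 1.3.1, but the tool that made TPM is not given in the sources used here. The study states only a mean number of reads over all samples, and the depth of each sample is not given in the sources used here. The sources do not say whether replicates were injured separately, so p-values measure only the spread between these samples. No strand is kept, and the scale makes each gene relative to all others. Log2(TPM + 1) was fitted with limma 3.58.1 in R 4.3.3 (moderated variances with a trend, all 15 samples in 3 groups, Benjamini–Hochberg over 7441 genes, two-sided), and a fold change on this scale understates that of genes near 0. Genes were called at an adjusted p below 0.01 when the log2 fold change was also at least 1 in either direction, as in the study. A fit on simulated data was checked. Other values were computed with Python 3.11.15, NumPy 2.4.6, pandas 2.3.3 and matplotlib 3.10.9. Positions and exon overlaps come from the BDGP6.54 annotation of dm6.

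The comparison and the 36 gene lists, with 11 marker lists, were chosen with earlier results of these data known. Genes named were the 12 largest rises and 8 largest falls that did not overlap, per list up to 4 called and 2 abundant uncalled members, all markers and genes the study names. *Ets21C*, *Atf3*, *CCT7*, *stg*, *Oct-TyrR*, *sqh*, *Mlc-c*, *vir-1*, *Pak3*, *AnxB9*, *fan*, *CG7378*, *Fib*, *Hsp26*, *Pcyt1*, *TSG101* and any other name beyond this rule were chosen after their values were seen. At the filter's edge, 314 genes reached 1 TPM in exactly 5 samples (median of mean TPM 1.48) and 354 in exactly 4 (1.07). Of the 314, 41 reached it in all 4 hr samples and no other. The alternatives were another pseudocount, other filters, scalings, variance models and thresholds, a mitochondrial covariate, a replicate block and each replicate left out. The length setting and the paired omissions of 4 hr samples were added after the data were seen. Promoter motifs were not analysed here.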

Additional observations from a re-analysis of the deposited data

Results flagged for a closer look

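In 14 of 230 groups of 5 examined for genes named in the text, 1 sample stood apart from the other 4, where the gap to its nearest neighbor made up more than 0.71 of the group's range on the log2(TPM + 1) scale. Chance flags about 1 in 20 groups. Among uninjured samples, *Drat* was low in sample 5 at 5.88 TPM (nearest 11), *Jra* was low in sample 1 at 77.54 TPM (nearest 102.87), and *pre-rRNA:CR45845* was low in sample 1 at 87.01 TPM (nearest 149.33). *Ist1* was high in sample 3 at 108.75 TPM (nearest 70.11) and *NijA* high in the same sample at 4.08 TPM, where the other samples were listed at 0. *Orc1* had 0.49 TPM in sample 2 (nearest 0.06), *asRNA:CR46082* 1.88 TPM in sample 4 (nearest 0.29), and *Cyp4d14* 0.61 TPM in sample 4, where the others were listed at 0. *Npc2a* was low in sample 2 at 13.05 TPM (nearest 20.59), *SuUR* low in sample 3 at 0.49 TPM (nearest 2.22) and *Irc* low in sample 5 at 0.24 TPM (nearest 2.71).

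At 4 hr, all 3 such values were in sample 5. *Pfdn4* was high at 78.43 TPM (nearest 52.09), *Arpc2* high at 195.1 TPM (nearest 149.5) and *Fas3* low at 2.42 TPM (nearest 7.2).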

How the results depend on the processing

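Across 28 other settings, none of the 109 called genes examined one by one changed sign, and 72 were called in every setting that tested them. With single 4 hr or uninjured samples left out, 19 lost their call at least once: *AlaRS*, *CCT7*, *CG31300*, *CtsF*, *GstE3*, *Hsc70-4*, *Irc*, *Mkk4*, *P58IPK*, *Pfdn4*, *Rac2*, *Ras85D*, *RpL17*, *Rpt5*, *Rpt6*, *Stam*, *Ugt35E1*, *pre-lola-G* and *puc*. The most, 16, lost it without uninjured sample 2 and the fewest, 3, without uninjured sample 3 or 4 hr sample 4. Upregulated genes numbered 469, and 259 without 4 hr samples 1 and 2, 292 with the mitochondrial percentage in the fit, 288 with quantile normalization and 734 at an adjusted p below 0.05. Downregulated genes numbered 20, and 13 without 4 hr samples 1 and 2, 33 without samples 4 and 5, 81 with the length trend removed, 68 with the mitochondrial genome removed, 51 with its percentage in the fit, 10 with no filter, 10 with only the 10 samples, 87 with quantile normalization, 77 with size factors and 59 at an adjusted p below 0.05. Over all genes the median log2 fold change, 0.309, was −0.016 with the length trend removed, 0.016 without the mitochondrial genome, 0.034 with the percentage in the fit, −0.058 with quantile normalization and 0.011 with size factors. List genes called numbered 140, and 87 without 4 hr samples 1 and 2. Upregulated genes lower at 24 hr with an adjusted p below 0.01 numbered 133, and 86 without 4 hr samples 1 and 2, 209 with the length trend removed and 206 with the percentage in the fit.

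With single replicates left out, upregulated genes numbered 354 to 551, downregulated ones 12 to 30, list calls 111 to 157 and genes lower at 24 hr 99 to 136, and the median was 0.241 to 0.389. With the replicate number as a block, 545 genes were upregulated and 27 downregulated. Same-numbered 4 hr and uninjured samples correlated at 0.157, −0.042, −0.029, 0.013 and 0.153 in their deviations from the group means, and 2 of 5 correlated best with their own number, so the numbers were not taken as pairs. The median log2 fold change varied with exonic length, at 0.059, 0.227, 0.403, 0.506 and 0.352 from the shortest to the longest of 5 equal bins. The planned search for promoter motifs was not run.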
